A study of Pimephales promelas with 16 samples.

Results

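Ovary explants incubated for 12 h with flutamide were compared with ovary explants incubated for 12 h with DHT, on 4 one-colour microarrays each. The 8 arrays were those labelled with agent Flutamide (replicates 2, 3, 5 and 6) and with agent DHT (replicates 1, 4, 5 and 6), out of 16 arrays in the series. All explants came from ovaries of female fathead minnow (Pimephales promelas), a small fish used in toxicology. Each compound was given at 1e-06 M, and the 8 other arrays were 4 of LIN explants, a name that the series title lets one read as the herbicide linuron, and 4 of controls. The treatment text of the labels writes FLUY where the agent label writes Flutamide. The labels name no carrier, fish age or stage of the ovary, and leave unsaid whether each replicate is another fish, so p-values measure only how these samples spread, which may be partly technical. They give an RNA integrity number above 7.5 for every RNA used, after a column clean-up of the weaker extracts.

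DHT, dihydrotestosterone, is an androgen that cannot be turned into an oestrogen. It binds the androgen receptor, which then acts in the nucleus as a transcription factor. Flutamide is a drug whose active form occupies the same receptor without switching it on. In the fish ovary the follicle cells around each oocyte make androgens and convert part of them to oestradiol, the hormone that drives yolk formation. A direct comparison of an androgen with a receptor blocker therefore sets explants with an added agonist against explants with an added antagonist.

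The arrays carried 15208 probes at 1 spot each. Besides its identifier, each has the name of a contig or sequence (14499 names), and 0 of these could be found among the RefSeq genes of assembly fPimPro1.hap1.1. Neither genes of the androgen or steroid pathways nor markers of oocytes, follicle cells, blood or muscle could therefore be looked up, and the ovary label could not be checked against markers. The levels given here are log2 signals minus the log2 of the array's 75th percentile, so a level of 0 is as bright as that percentile. A level describes 1 probe and is not set against that of another probe. Of the probes, 13146 were kept because at least 3 arrays of some group measured them well above background, and 11445 were well above background on all 8 flutamide and DHT arrays.

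None of 3 array measures separated the groups past a test. The 75th percentile of the signal was 1892 ± 645 with flutamide and 1970 ± 1050 with DHT (SD, n = 4 each; two-sided exact permutation test, p = 0.886). The share of probes well above background was 83.82% ± 2.08 with flutamide and 84.13% ± 2.46 with DHT (SD, n = 4 each; two-sided exact permutation test, adjusted p = 0.886 over 3 array measures). The flutamide arrays all lay in column 3 of their slides and the DHT arrays in columns 1 and 2, so that slide position and compound cannot be told apart. Slide 1 held 2 arrays of each group, slide 2 held 1 flutamide array, and slide 3 held 1 flutamide and 2 DHT arrays.

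Arrays with one replicate number in their titles were more alike than arrays of one compound. Levels of flutamide 5 and DHT 5 correlated at r = 0.99 over probes, and those of flutamide 6 and DHT 6 at r = 0.988. Arrays of different numbers correlated at r = 0.949 to 0.964 between the groups, at 0.955 to 0.962 within flutamide and at 0.955 to 0.968 within DHT. The labels do not say what the number marks. The SD of the difference over probes was 0.483 for flutamide 5 minus DHT 5 and 0.509 for flutamide 6 minus DHT 6, against 0.876 to 1.04 for the 14 combinations of arrays with different numbers. The share of probes that differed by at least 1 log2 unit was 5.77% and 4.09% in the number 5 and number 6 pairs, and 14.9% to 23.9% in the other combinations.

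No probe passed the test between flutamide and DHT explants after correction for the number of probes. The limma test called 0 of 13146 probes (0%) at an adjusted p below 0.05, and the smallest adjusted p was 0.25. This fit has no block for the replicate number, although arrays of one number were more alike, so the arrays were not independent. At an unadjusted p below 0.05 lay 668 probes (5.08% of those tested), against 657.3 that such a threshold passes with independent arrays and no difference. Of these, 158 (1.2%) were higher and 510 (3.88%) were lower with flutamide, so that 76.3% were lower. Over all kept probes 56.8% were lower, and the median difference was -0.05 with quartiles of -0.30 and 0.14. The 4 flutamide and 4 DHT values did not overlap for 653 probes (4.97%), of which 156 (1.19%) were higher and 497 (3.78%) were lower. The median 95% confidence interval of a difference reached 0.656 log2 units to either side, and as many probes had a narrower interval as had a wider one. A difference of at least 1 log2 unit was estimated for 180 probes in the higher and 306 in the lower direction, of which 49 and 125 had an unadjusted p below 0.05.

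The split of these probes between higher and lower moved with the scaling and the block. With median scaling, which raised the median difference of all probes to 0.07, 251 were higher and 447 lower (64.0% lower). With centring on spike-in spots, which lowered that median to -0.18, 29 were higher and 713 lower (96.1% lower). With normexp background correction, which raised it to 0.35, the split turned over, with 208 higher and 31 lower (13.0% lower). Entering the replicate number as a fixed block also turned the split, with 337 higher and 248 lower (42.4% lower). As a random block it gave 306 higher and 506 lower (62.3% lower). Of these 5 settings, median scaling called 1 probe and the others called 0. Leaving out flutamide 2 left 141 higher and 280 lower probes, a drop in lower probes that no other single array caused to that extent.

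Within slides, the comparison rested on fewer arrays. On slide 1, with 2 arrays of each group, 261 higher and 474 lower of 13145 probes reached an unadjusted p below 0.05. There limma called 0 probes. On slide 3, where flutamide 6 stood alone against DHT 5 and 6, it called 1 higher and 5 lower probes, and 120 higher and 203 lower ones had an unadjusted p below 0.05. The lone array was assumed to vary like the others. The 5 lower probes differed by -9.80 to -4.04 on slide 3 and by -0.52 to 0.14 on slide 1. Their low values were those of flutamide 6 alone: the probe UF_Ppr_AF_118448, for FJU.3979.C1, had levels of 0.93, 0.17, 0.58 and -9.16 in flutamide explants 2, 3, 5 and 6, against 0.61, 1.19, 0.39 and 0.88 in DHT explants 1, 4, 5 and 6. The higher probe, UF_Ppr_AF_100691 for gi_73446327, differed by 4.04 on slide 3 and by 0.20 on slide 1. Its level was -2.11 on flutamide 6, against -7.40 to -4.88 on the 15 other arrays. On flutamide 6, 9 spots lay more than 3 log2 units under all 15 other arrays, 5 of them in rows 42 to 46 and columns 17 to 19 of the array and 4 in rows 131 to 136 and columns 8 to 9. These areas held 4 and 1 of the probes called lower on slide 3. The 129 probes that 1 array put more than 3 log2 units beyond all 15 others include these 5, so leaving them out was bound to remove those calls. Over all arrays, limma called 0 probes with the 129 and 0 without them, so that count does not bear on the slide 3 calls. Without the 129, 160 higher and 511 lower probes had an unadjusted p below 0.05. That alternative was chosen after seeing the data.

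With the arrays scaled to their 75th percentile, the median difference between flutamide and DHT varied with the brightness of the probes. The kept probes were divided into 5 groups of nearly equal size by their mean level over all 16 arrays. The median difference, flutamide minus DHT, was -0.24 in the dimmest group, -0.18 in the second, -0.08 in the third, -0.0032 in the fourth and 0.06 in the brightest. Lower probes at an unadjusted p below 0.05 numbered 103, 181, 160, 60 and 6 in that order, and higher ones 32, 29, 29, 40 and 28. Lower probes were thus found mainly in the 3 dimmer groups, while higher ones were spread more evenly.

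The same tilt was measured per array, as the median deviation of the dimmest group of probes from its mean over all 16 arrays minus that of the brightest group. It was -0.18, 0.18, -0.34 and -0.32 on flutamide arrays 2, 3, 5 and 6, and 0.28, 0.25, 0.15 and -0.13 on DHT arrays 1, 4, 5 and 6. Flutamide 3 lay among the DHT arrays, and DHT 6 lay among the flutamide arrays. The mean of this index was -0.16 ± 0.24 with flutamide and 0.14 ± 0.19 with DHT (SD, n = 4 each). Their difference of -0.30 did not pass a two-sided exact permutation test (p = 0.0857, 0.257 adjusted over 3 array measures), whose smallest possible p is 0.0286. The number 5 pair alone ran from -0.35 in the dimmest group to 0.06 in the brightest, and the number 6 pair from -0.08 to 0.08. The difference in tilt was -0.03 after quantile normalization and in the authors' value table, -0.14 under a fixed block by number and -0.19 under a random one, and it changed sign to 0.82 with normexp. The part of the tilt in the larger number of lower probes was not tested.

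**Figure D1:**
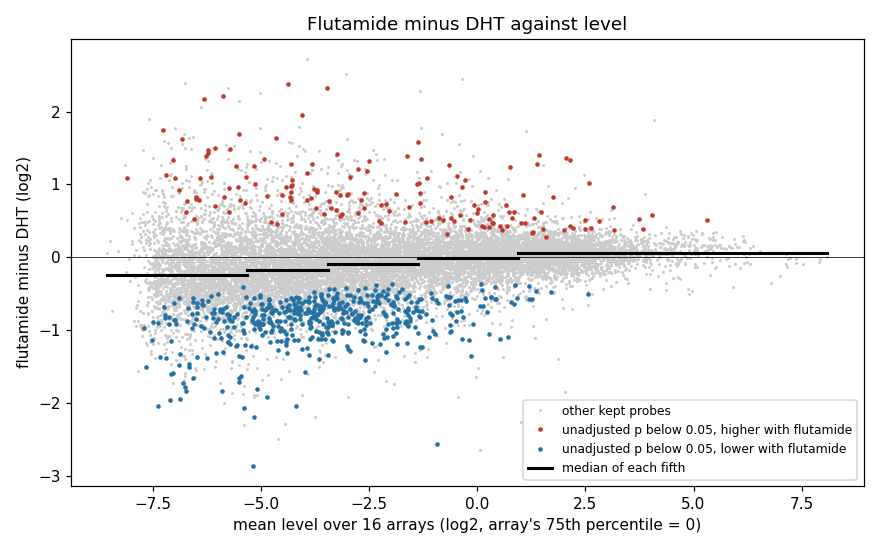
Difference of each kept probe, flutamide minus DHT in log2 units, against its mean level over all 16 arrays in log2 units relative to the array's 75th percentile, with the median of each of the 5 brightness groups as a bar. Coloured points are the 158 higher and 510 lower probes at an unadjusted p below 0.05, and the bars climb from -0.24 at the dim end to 0.06 at the bright end.

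A probe for contig FJU.6392.C3 had the smallest p of the comparison. This probe, UF_Ppr_AF_101427, had levels of -4.67, -4.27, -4.50 and -4.37 in flutamide explants 2, 3, 5 and 6, against -2.99, -3.25, -3.02 and -2.99 in DHT explants 1, 4, 5 and 6. The groups did not overlap, and the highest flutamide value lay about 1 log2 unit under the lowest DHT value. The mean was -4.45 ± 0.17 with flutamide and -3.06 ± 0.13 with DHT (SD, n = 4 each), a difference of -1.39 ± 0.22 (SE), or 2.62-fold lower with flutamide. It did not pass over all probes (limma adjusted p = 0.25). It passed in 3 other scalings of the same arrays, at -1.27 with median scaling (limma adjusted p = 0.0402), -1.26 with quantile normalization (0.0161) and -1.26 in the authors' value table (0.0176). It did not pass with the 75th percentile of probes well above background on all arrays (-1.42, limma adjusted p = 0.282). Nor did it pass with spike-in centring (-1.51, limma adjusted p = 0.43). With normexp background correction it shrank to -0.20 (limma adjusted p = 0.886). Leaving out any single array, it did not pass either (limma adjusted p = 0.589 or more). None of these fits had a block for the replicate number. The difference was -1.48 in the number 5 pair, -1.38 in the number 6 pair and -1.35 over the 4 other arrays. On slide 1 it was -1.26 and on slide 3 it was -1.36. With the number as a random block it was -1.29 (limma adjusted p = 0.114) and with a fixed block -1.22 (limma adjusted p = 0.898). Control explants averaged -2.91 ± 0.28 and LIN explants -4.20 ± 0.49 (SD, n = 4 each).

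Contigs FJU.6392.C5 and FJU.6392.C2 share the contig number of that probe and were singled out after their values were seen. UF_Ppr_AF_100885, for FJU.6392.C5, had levels of -4.14, -3.65, -4.19 and -3.98 with flutamide, against -2.60, -3.13, -2.86 and -2.81 with DHT. The groups were again apart, with a difference of -1.14 ± 0.24 (SE), 2.2-fold lower with flutamide, that did not pass (limma adjusted p = 0.622). UF_Ppr_AF_111116, for FJU.6392.C2, had levels of -5.03, -3.54, -4.14 and -3.96 with flutamide, against -2.97, -3.09, -2.90 and -3.21 with DHT. Here too no values overlapped, but flutamide 2 stood well under the other flutamide arrays, and the difference was -1.12 ± 0.44 (SE; limma adjusted p = 0.886). Of 238 contig numbers with at least 3 kept probes, this was the one for which all probes were lower with flutamide without overlap, and for 0 were all probes higher without overlap. This contig number was reached through its C3 probe, which was chosen among probes without overlap, so the count follows in part from the choice. Over all kept probes, 3.78% were lower and 1.19% higher without overlap. Whether the 3 contigs stand for one transcript is not stated.

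**Figure D2:**
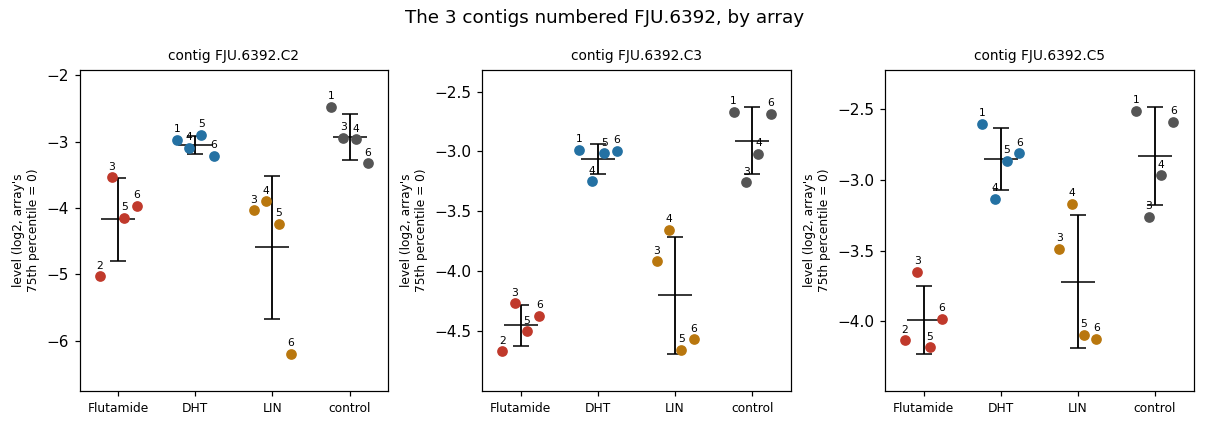
Levels of the 3 probes for contigs FJU.6392.C3, C5 and C2 on each array, in log2 units relative to the array's 75th percentile, for flutamide, DHT, LIN and control explants, with the group mean and SD as bars and the replicate number beside each point. In each panel the 4 flutamide points lie below the 4 DHT points.

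The next lowest p belonged to a probe for sequence gi_73445095. UF_Ppr_AF_110852 had levels of -6.58, -6.76, -6.36 and -5.77 with flutamide, against -5.08, -4.57, -4.83 and -4.41 with DHT. The groups did not overlap, and the mean was -6.37 ± 0.43 with flutamide and -4.72 ± 0.29 with DHT (SD, n = 4 each). The difference of -1.65 ± 0.33 (SE), 3.13-fold lower with flutamide, did not pass (limma adjusted p = 0.622). It was -1.53 in the number 5 pair, -1.36 in the number 6 pair, -1.74 on slide 1 and -1.15 on slide 3. A random block by number gave -1.42 (limma adjusted p = 0.114) and a fixed block -1.33 (limma adjusted p = 0.898). With normexp background correction the difference changed sign to 0.25 (limma adjusted p = 0.878).

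Among probes that were higher with flutamide, the smallest p belonged to UF_Ppr_AF_109913, for sequence gi_73650815. Its levels were 0.51, 0.0032, -0.23 and 0.23 with flutamide, against -1.07, -1.23, -1.53 and -0.72 with DHT. It was among the brighter probes, and no flutamide value reached down to the DHT values. The mean was 0.13 ± 0.32 with flutamide and -1.14 ± 0.34 with DHT (SD, n = 4 each), a difference of 1.26 ± 0.28 (SE), or 2.4-fold higher with flutamide, that did not pass (limma adjusted p = 0.622). The number 5 pair gave 1.30, the number 6 pair 0.95, slide 1 1.04 and slide 3 1.36. A random block by number gave 1.19 (limma adjusted p = 0.114) and a fixed block 1.15 (limma adjusted p = 0.898). Over all alternatives of the processing the difference stayed between 1.04 and 1.40. LIN explants averaged -0.63 ± 0.63 (SD, n = 4).

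UF_Ppr_AF_117784, for sequence gi_72424021, had levels of -4.74, -5.29, -5.21 and -5.10 with flutamide, against -7.63, -6.72, -5.95 and -6.01 with DHT. The lowest DHT value, that of DHT 1, was not well above background, and the groups did not overlap. The difference was 1.49 ± 0.33 (SE), 2.81-fold higher with flutamide (limma adjusted p = 0.622). It was smaller in the pairs of one number, at 0.74 and 0.91, than over the 4 other arrays, at 2.16. A random block by number gave 1.21 (limma adjusted p = 0.278) and a fixed block 1.05 (limma adjusted p = 0.987).

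**Figure D3:**
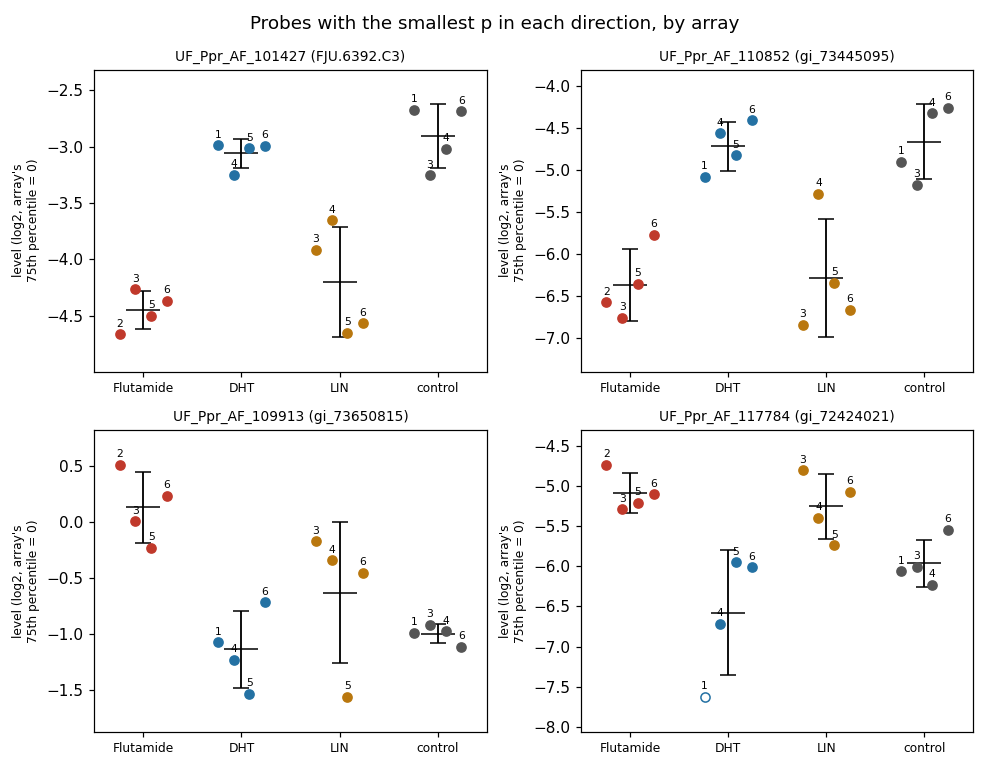
Levels of the 2 probes with the smallest p in each direction on each array, in log2 units relative to the array's 75th percentile, with the group mean and SD as bars. Flutamide points lie below all DHT points for the probes of FJU.6392.C3 and gi_73445095, and above them for those of gi_73650815 and gi_72424021.

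The shared numbers 5 and 6 allowed a comparison with the variation between numbers removed. Flutamide 5 was on slide 1 and DHT 5 on slide 3, scanned on another day, while both arrays of number 6 were on slide 3. In the number 5 pair, slide and compound thus cannot be told apart. Of 13129 probes measured in both pairs, 8113 (61.8%) had the same sign in both, 3603 higher and 4510 lower with flutamide. The differences of the pairs, which share no array, correlated at r = 0.208 across probes. Against the mean difference of the 4 other arrays (flutamide 2 and 3, DHT 1 and 4), r was 0.301 for number 5 and 0.126 for number 6. Probes on one array share its scale and its tilt with brightness, and are not independent replicates, so these values are descriptions. A limma fit of these 4 arrays with the number as a block called 0 probes, with a smallest adjusted p of 0.39. Of 13146 probes, it put 467 higher and 1089 lower ones at an unadjusted p below 0.05. With independent probes and no difference, such a threshold passes 657.3. The 4 arrays leave little from which to estimate the spread of a probe, and the excess was not tested.

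Differences of at least 1 log2 unit in the same direction in both pairs were found for 32 higher (0.244%) and 70 lower (0.533%) probes. This split moved with the scaling, to 45 higher and 44 lower with median scaling, 55 higher and 34 lower after quantile normalization, 58 and 38 in the authors' value table, 10 and 5 with normexp, and 7 and 656 with spike-in centring. Of the 32 and 70 probes, 6 and 28 also had no overlap between the groups over all 8 arrays, which the choice partly fixed, since it used 4 of them (all kept probes 1.19% higher and 3.78% lower). The differences of 1 log2 unit were asked of arrays 5 and 6, but the filter on dim probes also used the 4 other arrays. A dim probe kept through the group where it is high has its sign partly fixed by that filter. The reading of the same probes on the 4 other arrays is thus only partly separate. There, the 32 higher probes had a median difference of 0.88, and 24 of them (75%) were higher with flutamide. Of the 70 lower probes, 68 were measured on all 4 other arrays, with a median difference of -0.81, and 60 (88.2%) were lower. Over all 13086 kept probes measured there, the median was -0.07, with 43.5% higher and 56.5% lower. These were not matched to the chosen probes for brightness. The tilt index was -0.18 and 0.18 on flutamide 2 and 3, and 0.28 and 0.25 on DHT 1 and 4. Its part in the shared signs was not tested. Values did not overlap on those 4 arrays for 11 of the 32 higher probes (34.4%, against 13.3% of all probes) and for 35 of the 68 lower ones (51.5%, against 19.5% of all probes).

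Fewer probes remained when all 4 arrays had to measure them clearly. Among probes well above background on all 4 arrays of numbers 5 and 6, 23 were higher and 33 lower by at least 1 log2 unit in both pairs. On the 4 other arrays 17 of those 23 (73.9%) were higher, with a median of 0.68, and 31 of those 33 (93.9%) were lower, with a median of -0.96. At 0.58 log2 units in place of 1, there were 143 higher and 388 lower probes, and 69.2% and 86.2% of those measured kept their sign on the other arrays.

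**Figure D4:**
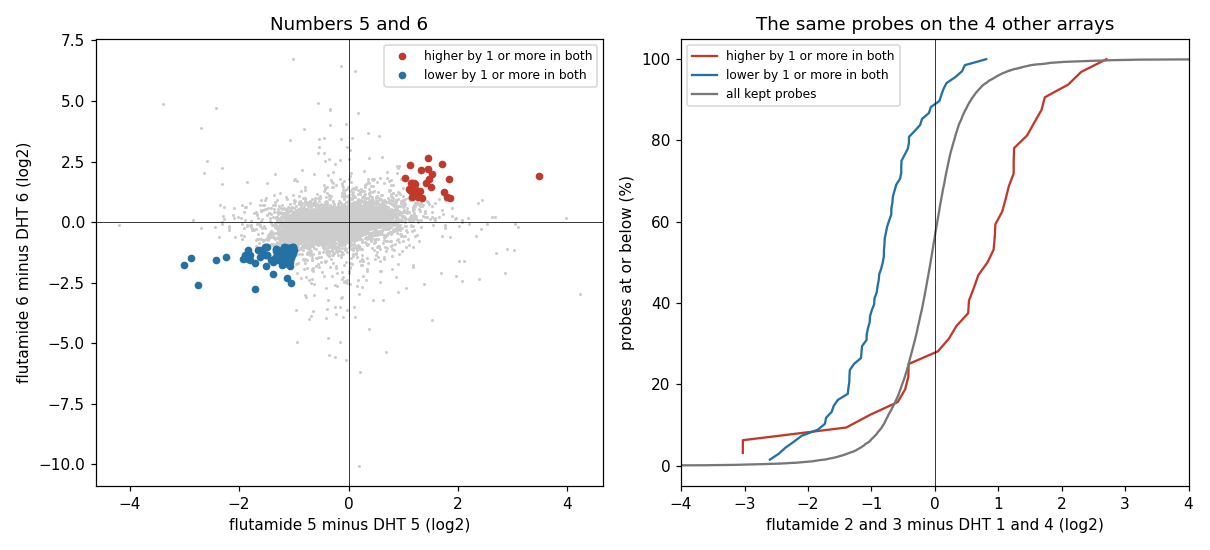
Left, the difference flutamide 5 minus DHT 5 against flutamide 6 minus DHT 6 for each probe, in log2 units, with the 32 probes higher and 70 lower by at least 1 in both coloured. Right, the cumulative share of probes by their difference on the 4 other arrays, where the curves of the chosen probes are shifted to either side of the curve of all probes, with medians of 0.88 and -0.81 against -0.07.

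The probe with the largest lower difference in both pairs was UF_Ppr_AF_113084, for contig FJU.11271.C2. Its levels were 0.03, -2.40, -2.95 and -2.21 in flutamide explants 2, 3, 5 and 6, against 1.35, 1.19, -0.21 and 0.37 in DHT explants 1, 4, 5 and 6. Flutamide 2 lay above DHT 5, so the groups overlapped. The difference was -2.75 in the number 5 pair and -2.58 in the number 6 pair, and -2.46 over the 4 other arrays. Over all arrays it was -2.56 ± 0.73 (SE), 5.9-fold lower with flutamide, and did not pass (limma adjusted p = 0.622). A random block by number gave -2.42 (limma adjusted p = 0.259) and a fixed block -2.50 (limma adjusted p = 0.898).

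The next, UF_Ppr_AF_118426 for contig FJU.6713.C2, had levels of -5.27, -6.21, -6.84 and -6.05 with flutamide, against -3.57, -4.44, -5.03 and -4.49 with DHT. No values overlapped. The difference was -1.81 and -1.56 in the pairs, -1.73 over the 4 other arrays and -1.71 ± 0.46 (SE) over all arrays (limma adjusted p = 0.622). It was -1.73 with a random block by number (limma adjusted p = 0.181) and -1.78 with a fixed block (limma adjusted p = 0.898). With normexp background correction it changed sign to 0.34 (limma adjusted p = 0.833).

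The probes with the largest higher differences in both pairs had smaller or opposite differences on the other arrays. UF_Ppr_AF_101612, for contig FJU.273.C2, had levels of -7.97, -5.72, -3.29 and -4.95 with flutamide, against -7.98, -6.15, -6.77 and -6.84 with DHT. Flutamide 2 and DHT 1 were not well above background and lay together at the bottom. Its difference was 3.48 and 1.89 in the pairs, but 0.22 over the 4 other arrays, which share no number between the groups. Over all arrays it was 1.45 ± 1.22 (SE; limma adjusted p = 0.988), and 2.17 with the number as a fixed block (limma adjusted p = 0.999). Control explants averaged -3.73 ± 1.68 and LIN explants -4.83 ± 2.63 (SD, n = 4 each), both above the flutamide mean of -5.48. UF_Ppr_AF_105824, for contig FJU_SB_30.567.C1, had levels of -5.58, -4.92, -2.50 and -2.83 with flutamide, against -4.99, -3.46, -4.21 and -5.25 with DHT. It was higher in the pairs, by 1.71 and 2.42, and had a difference of -1.02 over the 4 other arrays. Over all arrays it was 0.52 ± 0.72 (SE; limma adjusted p = 0.991), but 1.31 with the number as a random block (limma adjusted p = 0.715) and 1.72 as a fixed block (limma adjusted p = 0.987).

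Control and LIN explants were set beside flutamide and DHT for the probes at an unadjusted p below 0.05. These comparisons share the DHT arrays, and the probes were chosen on the difference between flutamide and DHT. The spread behind each p came from the fit to all groups, so LIN and control arrays also had a part in the choice. A fit of only the flutamide and DHT arrays put 193 higher and 773 lower of 13146 probes at an unadjusted p below 0.05. With independent arrays and no difference, such a threshold passes 657.3. The medians are therefore a description. For the 158 probes higher with flutamide, the median difference from DHT was 0.79 in flutamide, 0.51 in LIN and -0.0051 in control explants. For the 510 lower probes it was -0.79 in flutamide, -0.78 in LIN and -0.12 in control explants. Over all kept probes it was -0.05 in flutamide, -0.06 in LIN and 0.02 in control explants. The groups also share replicate numbers unevenly: LIN shares 3 of its 4 numbers with flutamide and 3 with DHT, and control shares 2 with flutamide and 3 with DHT. The tilt index with brightness was 0.20, 0.35, -0.42 and -0.72 on LIN arrays 3, 4, 5 and 6. On control arrays 1, 3, 4 and 6 it was 0.51, -0.17, 0.30 and 0.05. The part of the tilt in these medians was not tested.

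**Figure D5:**
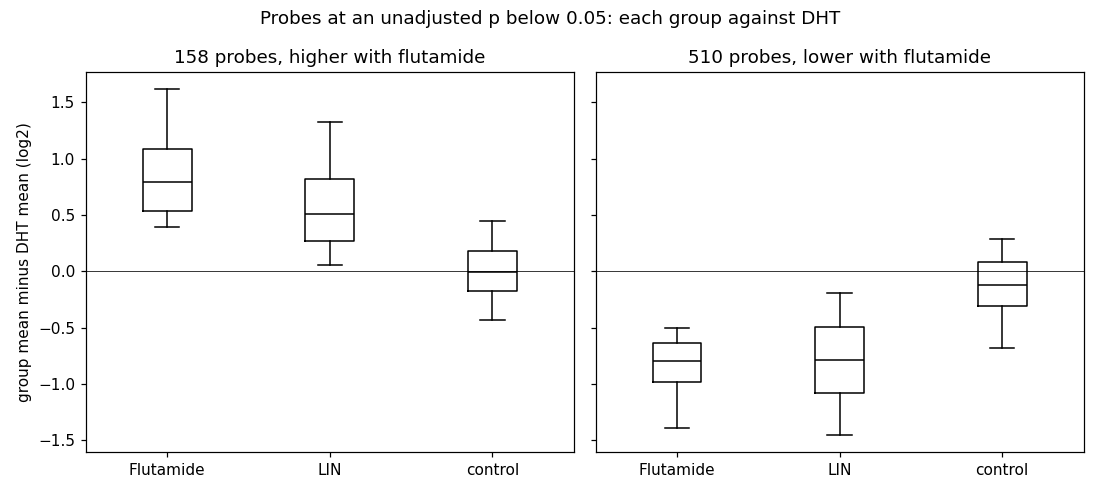
Group mean minus DHT mean in log2 units for flutamide, LIN and control explants, over the 158 probes higher (left) and the 510 lower (right) with flutamide at an unadjusted p below 0.05; boxes show quartiles and median, and whiskers leave out the outermost 5% on either side. LIN medians lie at 0.51 and -0.78 and control medians at -0.0051 and -0.12, beside flutamide medians of 0.79 and -0.79 that the choice of probes fixed.

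Few probes were detected in one group and not in the other. UF_Ppr_AF_107237, for FJU.4944.C1, was the 1 probe well above background on all 4 flutamide arrays and on no DHT array. It was also well above background on 3 LIN and 2 control arrays. Its levels were -7.69, -5.98, -7.61 and -7.07 with flutamide, against -7.45, -7.38, -7.82 and -7.27 with DHT. The groups overlapped, and flutamide 3 stood apart. From the group means it had a bound of 1.19-fold higher with flutamide (measured difference 0.39, limma adjusted p = 0.989), but without flutamide 3 no fold above 1 was left.

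The opposite held for 3 probes, named here after their values were seen. Like the probe above, they were chosen on these same values, so their direction and bounds follow in part from the choice. UF_Ppr_AF_118866 and UF_Ppr_AF_113074 were kept through the DHT arrays alone. They were well above background on 1 and 2 LIN arrays and on 2 and 0 control arrays. The third, UF_Ppr_AF_100790, was well above background on 3 LIN and 3 control arrays. UF_Ppr_AF_118866, for gi_72737174, had levels of -8.08, -6.52, -7.39 and -7.93 with flutamide, against -3.88, -5.53, -7.02 and -6.59 with DHT. Flutamide 3 lay above DHT 5 and 6, so the groups overlapped, and DHT 1 was far the highest. From the group means it had a bound of 2.92-fold lower with flutamide (measured difference -1.72, limma adjusted p = 0.937), and of 1.89-fold without DHT 1. The difference was smaller in the pairs, at -0.37 for number 5 and -1.34 for number 6. With the number as a block the measured difference was -1.08 (random, limma adjusted p = 0.834) or -0.75 (fixed, limma adjusted p = 0.999). For the other 2 probes the groups did not overlap. UF_Ppr_AF_100790, for gi_73579766, had a bound of 2.05-fold lower with flutamide (measured difference -1.32, limma adjusted p = 0.86), and of 1.66-fold without DHT 4. Its difference was -1.66 in the number 5 pair and -0.71 in the number 6 pair. It was -1.91 on slide 1, -0.39 on slide 3 and -0.88 with the fixed block. UF_Ppr_AF_113074, for FJU_SB_30.915.C1, had a bound of 1.63-fold lower with flutamide (measured difference -1.50, limma adjusted p = 0.622), and of 1.47-fold without DHT 1. It was well above background on 0 of 4 control arrays. Its difference was -0.77 in the number 5 pair and -2.28 in the number 6 pair. With at least 3 arrays asked of one group and 0 of the other, 9 probes were detected with flutamide and not with DHT, and 17 with DHT and not with flutamide. The bounds of the named probes compare means of the brighter group with the lowest signal that counts as well above background, or the probe's own where higher. They hold for the measured group means, without the sampling error of these means, and are no floor for a single pair, slide or block.

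Probes that share a name or a contig number were set beside each other, without knowing whether they share a target. For 329 names a pair of kept probes existed, one of them with a name ending in _ms, whose meaning is not stated. The differences of the 2 probes of a name correlated at r = 0.0553, and 56.5% of pairs had the same sign. For 17 partners of a probe at an unadjusted p below 0.05, 10 (58.8%) had its sign. Probes of different contigs with one contig number, 1973 pairs, gave r = 0.0763 and 54.3% with the same sign. Of 202 partners of probes at an unadjusted p below 0.05, 131 (64.9%) had the same sign. Partners were counted once for each pair, so the same probe can count several times. The FJU.6392 probes singled out above are among them. In those pairs the 162 partners of lower probes had a median difference of -0.07, against -0.82 for the lower probes themselves, and the 40 partners of higher probes 0.09, against 0.83. In the pairs of one name, the 11 partners of lower probes had a median of -0.25, against -0.91, and the 6 partners of higher probes -0.15, against 0.69. For those 6 the median of the partners was thus of the opposite sign.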

How the data were processed

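Total RNA was labelled with Cy3 and hybridised to Agilent one-colour arrays, per the labels. Per the file headers, spots were read with Agilent Feature Extraction (version 10.7.1.1). The deposited processed signal is a linear intensity from which that software took the background of each array, with no scaling between arrays. Deposited flags, other values of 0 or 1, mark spots that stand well above background, that are saturated or that are outliers. A further deposited table holds log2 values for these arrays. Its columns correlated with the log2 signal of their own array at r = 0.99955 to 0.99997 and with any other array at 0.9922 at most, so direction and row order are known. Its column medians lay between 7.62 and 7.65. Its normalization and centring constant are not given in the sources used here, and it served as an alternative.

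Each array had 15744 spots, of which 536 control spots were left out, with 185 outlier spots over the 16 arrays. Saturated probes numbered 0. The processed signal was put on a log2 scale, and the 75th percentile over probes was subtracted on each array. A limma model (version 3.58.1, R 4.3.3) with 4 group means was fitted to the 16 arrays. Flutamide minus DHT was its contrast, tested two-sided with moderated variances, and p-values of the kept probes were adjusted by Benjamini-Hochberg. The fit was tested on simulated data in which the arrays varied independently, so that test does not cover arrays paired by number. Array measures were compared by exact permutation over the 8 arrays. The number of arrays limits the precision.

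Whether the title numbers pair arrays was checked apart from the calls, by correlating deviations from group means over probes. All 16 pairs of arrays with one number in different groups correlated above 0.1, at r = 0.353 to 0.771, so the numbers pair the samples. The pairs of numbers 5 and 6 had 0.689 and 0.615, and flutamide and DHT arrays of different numbers -0.31 to 0.236. Blocks by number are given where they moved a count, and beside many of the named probes. The random block had a correlation of 0.631.

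Named probes were at most 2 per direction: for the whole comparison, those of smallest p without overlap between groups; for numbers 5 and 6, those well above background on all 4 arrays with the largest smaller difference. Members and lists were chosen with earlier results of these data known. Alternatives were other scalings, background correction, filters on dim probes, the samples fitted, blocks by number, slide or scan day, and leaving out each array. Background correction by normexp used an offset of 50 and the median signal of spots. Genome positions and sequences of probes are not given in the sources used here, so none are printed.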

Additional observations from a re-analysis of the deposited data

Results flagged for a closer look

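Of 34 groups of 4 values tested, 6 held a value far from the rest. Chance alone marks about 5% of such groups.

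For UF_Ppr_AF_101427, contig FJU.6392.C3, DHT 4 had the lowest DHT level at -3.25, and the others lay between -3.02 and -2.99. The gap was 0.892 of the range of the group. All 4 DHT values stayed above all flutamide values, and leaving out 1 array at a time kept the difference between -1.45 and -1.32.

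The other 5 were the probes that limma called lower on slide 3, each with flutamide 6 far under the other flutamide arrays. They were tested because that array set them apart, so the marks follow from the choice. Flutamide 6 had -8.81 for UF_Ppr_AF_117008 (other flutamide arrays -4.04 to -3.32), -6.09 for UF_Ppr_AF_113826 (0.07 to 0.85) and -4.11 for UF_Ppr_AF_104487 (-0.28 to 0.35). It had -9.16 for UF_Ppr_AF_118448 (0.17 to 0.93) and -3.41 for UF_Ppr_AF_105084 (2.04 to 2.39). Over all arrays their differences from DHT did not pass (limma adjusted p = 0.988 for each).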

How the results depend on the processing

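With the number as a replicate block, limma called 0 probes, fixed or random. The fixed block gave 337 higher and 248 lower probes at an unadjusted p below 0.05, the random block 306 higher and 506 lower, and numbers 5 and 6 alone 467 higher and 1089 lower, against 158 and 510 without a block. The cause was not tested for these or the following values. Called probes numbered 1 with median scaling, quantile normalization or the authors' value table, each time FJU.6392.C3 at -1.27, -1.26 and -1.26, and 6 within slide 3. Median scaling gave 251 higher, spike-in centring 29, slide 1 alone 261. Lower probes numbered 31 with normexp, 773 with only the 8 arrays and 203 within slide 3. Leaving out 1 array at a time gave 0 to 0 calls, 113 to 195 higher and 280 to 675 lower probes, the 280 without flutamide 2. The brightness tilt ran from -0.41 to -0.24 without 1 array, was -0.03 with quantile normalization and in the authors' table, and changed sign to 0.82 with normexp (exact permutation p = 0.543), as did gi_73445095 (0.25) and FJU.6713.C2 (0.34).

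Probes higher or lower by 1 log2 unit in both pairs, 32 and 70, numbered 55 and 34 with quantile normalization, 58 and 38 in the authors' table, 7 and 656 with spike-in centring, and 10 and 5 with normexp. They numbered 49 and 141 without a filter on dim probes, 19 and 32 when well above background on all 8 arrays, and 143 and 388 at 0.58 units. They numbered 45 and 44 with median scaling, and 23 and 33 when well above background on the 4 arrays of the pairs, an alternative chosen after seeing the data. The number of arrays limits the precision of all differences.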

Other observations

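Probes for gi sequences and for FJU contigs are the main kinds of probe on the array. For gi sequences the median difference, flutamide minus DHT, was -0.17 over 2429 kept probes, where 24 higher and 130 lower ones had an unadjusted p below 0.05, against -0.03 over 10133 FJU contigs, with 123 higher and 359 lower. Probes for gi sequences numbered 906 in the dimmest of 5 brightness groups and 93 in the brightest, against 1620 and 2417 for FJU contigs. Within those groups, dimmest first, the medians were -0.27, -0.22, -0.10, -0.05 and 0.04 for gi sequences, and -0.22, -0.17, -0.09, 0.0027 and 0.06 for FJU contigs. These differences between kinds of name were not tested.

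Single arrays held spots far from all 15 other arrays. Values more than 3 log2 units under all others numbered 11 on flutamide 2 and 9 on flutamide 6, against 0 on the other flutamide arrays and on each DHT array, and 58 on control 6. On flutamide 2 they were spread over rows 24 to 168, on flutamide 6 they lay in areas of 5 and 4 spots, and on control 6 they lay within rows 172 to 192 and columns 76 to 82. Values more than 3 log2 units above all others numbered 2, 5, 0 and 5 on flutamide 2, 3, 5 and 6, and 12, 0, 0 and 4 on DHT 1, 4, 5 and 6.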
